A study of Homo sapiens with 6 samples.

Results

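The INO80 complex was described through the 10 genes whose products are its own subunits: INO80, ACTR5, ACTR8, INO80B, INO80C, INO80D, INO80E, NFRKB, MCRS1 and TFPT. They were found in the deposited gene table by symbol, 1 row each, among 57905 genes, and all 10 were among the 15343 genes with enough counts to be tested. The INO80 complex is a chromatin remodeler that uses ATP to slide and edit nucleosomes, and it is known for exchanging nucleosomal H2A.Z, a histone variant found around gene starts, for H2A. The INO80 ATPase is the scaffold on which modules assemble. One module contains actin and the actin-related proteins, another the RUVBL1 and RUVBL2 ring with ACTR5 and INO80C, and another the subunits bound by the N-terminal part of the ATPase in animals. In kidney, it was of interest in the proximal tubule, whose cells are sensitive to lack of oxygen.

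The data were RNA-seq of HK-2 cells, a human renal proximal tubular cell line labelled wild type. Of the 6 libraries, 3 came from cells transfected with pooled non-targeting control siRNA and 3 from cells given a pooled siRNA reagent that targets INO80. RNA was collected after 48 h. All libraries thus shared 1 cell line and the transfection reagent, and no untransfected library or single siRNA was analysed here. Nothing in the labels says whether the libraries came from separate cultures, so the p-values measure only the spread between these libraries, which may be technical.

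Genes collected between 16829273 and 20311588 counts per control library and between 20678008 and 23784599 per INO80 siRNA library. The library numbered 1 stood apart in both groups: its deviations from the group mean correlated across the tested genes at -0.447 to -0.395 with those of differently numbered libraries of the other group. Of 10 proximal tubule markers, 2 (GGT1 and PAX8) reached an FPKM (counts scaled to exonic length and to the total count of the library) of 1 in every library, and CUBN, LRP2, HNF4A and SLC22A6 were at or near 0. Summed FPKM of these markers was 77.0 to 80.5 under control siRNA and 76.8 to 80.7 under INO80 siRNA. Nearly all of the sum was GGT1 (31.4 to 43.7 FPKM over the libraries) and PAX8 (33.4 to 48.7), and each varied more than the sum. Of 5 epithelial markers, all but CDH1 reached an FPKM of 1, and the sum was 378 to 414 against 338 to 414. Of the 9 markers of other kidney, vessel and blood cells in the table, COL1A1 alone did so, and their sum was 4.56 to 5.00 against 5.21 to 6.53. The part of these markers in the results below was not tested.

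The promoters of the 4 members other than INO80 that passed the test in at least 1 of the fits below are shown, since the comparison turns on these genes. Each is the RefSeq window on GRCh38.p14 from 250 bases before to 50 bases from the start site on, read 5′ to 3′ on the strand of the gene. Windows were found for all 10 members. They are INO80B (chr2:74454837-74455136, plus strand), INO80E (chr16:29995991-29996290, plus strand), NFRKB (chr11:129895529-129895828, minus strand, the upstream window of its 2) and INO80C (chr18:35497559-35497858, minus strand). Capitals mark the motif CCGGAAGT of ETS factors, the YY1 core GCCATNTT and the GC box GGGCGG, on either strand, so that the GC boxes of NFRKB read as CCGCCC.
INO80B: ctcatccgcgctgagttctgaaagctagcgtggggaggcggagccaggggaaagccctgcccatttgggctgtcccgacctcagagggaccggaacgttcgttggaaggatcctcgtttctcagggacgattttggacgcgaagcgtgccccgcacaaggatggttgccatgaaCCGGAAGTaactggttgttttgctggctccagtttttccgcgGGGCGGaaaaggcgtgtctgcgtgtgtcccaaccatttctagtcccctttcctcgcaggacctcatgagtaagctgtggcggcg
INO80E: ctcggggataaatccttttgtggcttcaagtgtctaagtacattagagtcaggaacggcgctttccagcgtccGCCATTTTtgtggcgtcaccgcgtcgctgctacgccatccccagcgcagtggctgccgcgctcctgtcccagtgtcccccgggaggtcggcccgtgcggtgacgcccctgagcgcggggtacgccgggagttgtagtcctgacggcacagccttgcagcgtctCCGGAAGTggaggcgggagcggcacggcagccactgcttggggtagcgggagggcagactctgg
NFRKB: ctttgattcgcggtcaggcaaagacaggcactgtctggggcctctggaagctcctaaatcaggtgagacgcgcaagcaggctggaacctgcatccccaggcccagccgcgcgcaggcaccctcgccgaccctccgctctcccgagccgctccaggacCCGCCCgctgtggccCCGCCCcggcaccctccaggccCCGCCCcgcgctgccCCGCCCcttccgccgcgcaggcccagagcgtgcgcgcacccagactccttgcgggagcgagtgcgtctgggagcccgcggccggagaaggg
INO80C: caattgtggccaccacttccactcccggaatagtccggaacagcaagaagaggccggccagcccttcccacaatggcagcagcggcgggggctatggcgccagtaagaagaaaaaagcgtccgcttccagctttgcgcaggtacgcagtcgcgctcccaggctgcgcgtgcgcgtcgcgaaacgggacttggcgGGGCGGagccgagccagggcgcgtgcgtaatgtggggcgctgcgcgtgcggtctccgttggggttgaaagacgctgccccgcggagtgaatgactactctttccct

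The letters CCGGAAGT were found in the windows of INO80B, 76 bases before the start, and INO80E, 14 bases before it. They occur in 4.14% of the 35116 windows in the table. The shorter CCGGAAG, which is contained in the longer motif, was also found in TFPT and occurs in 10.3% of all windows. The GC box was found in 6 of the 10 members (INO80, INO80B, INO80C, ACTR5, ACTR8 and NFRKB) and in 45.0% of all windows, and the NFRKB window held it 4 times. The YY1 motif AAGATGGC was found in ACTR5 alone (2.89% of all windows). Its core GCCATNTT, read on the other strand, matches every AAGATGGC, so in ACTR5 it was the same site. The core was also found in INO80E and occurs in 6.58% of all windows. CCAAT was found in ACTR5, TFPT and the NFRKB window that is not shown (34.6%), and its longer form CCAATC in TFPT (15.1%). The NRF1 motif GCATGCGC (3.05%) and the E2F motifs TTTCCCGC (1.63%) and TTTGGCGC (0.652%) were found in no member. Both strands were searched, and a match describes letters in a window, not a bound site.

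The first question was how far the targeted subunit fell. INO80 (ENSG00000128908, GRCh37 chromosome 15, 41271078 to 41408552, minus strand), the ATPase that moves nucleosomes, was at 46.3, 49.3 and 54.0 CPM (counts scaled to a common library size by TMM) in control libraries 1, 2 and 3. Under INO80 siRNA it was at 13.8, 12.0 and 14.2 CPM. Every INO80 siRNA library lay far below every control library. The mean was 49.9 ± 3.89 CPM (SD, n = 3) against 13.3 ± 1.12 CPM (SD, n = 3), a decrease of 73.3%. The log2 fold change was -1.90 (SE 0.0956, 95% interval -2.12 to -1.69, adjusted p = 0.000161, edgeR quasi-likelihood test). In bulk RNA, fewer transfected cells with little INO80 and a lower level in every cell cannot be told apart. The counts behind these values were 759, 1007 and 1044 against 277, 291 and 343. The exact two-sided permutation p was 0.1, the smallest that 3 libraries against 3 can give.

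The other members were compared in the same fit and in a second one. In the second, the replicate number was a block, so that each INO80 siRNA library was set against the control library of its number. Without the block, INO80 was the only member called at an adjusted p under 0.05, beside 1.49% of all tested genes called lower and 0.261% called higher. With the block, 2 members were called lower (INO80 and INO80C), beside 13.4% of all tested genes, and 3 were called higher (INO80B, INO80E and NFRKB), beside 11.4%. An unadjusted p under 0.05 was reached by 5 members without the block and by 7 with it, beside 2514 and 5394 of the 15343 tested genes. The CPM of the groups did not overlap for 2 members that were lower and 3 that were higher, the same 5 genes, beside 11.5% and 11.3% of all tested genes. Within pairs of the same number, 6 members were higher and 3 lower in 3 of 3 pairs, beside 26.8% and 25.9% of all tested genes. The median log2 fold change of the 9 members other than INO80 was 0.12, beside 0.0066 over all tested genes. Positive values were found for 7 of the 9, beside 7901 of the 15343 tested genes. The differences of these 9 genes were small: all lay between -0.32 and 0.32 on the log2 scale.

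**Figure D1:**
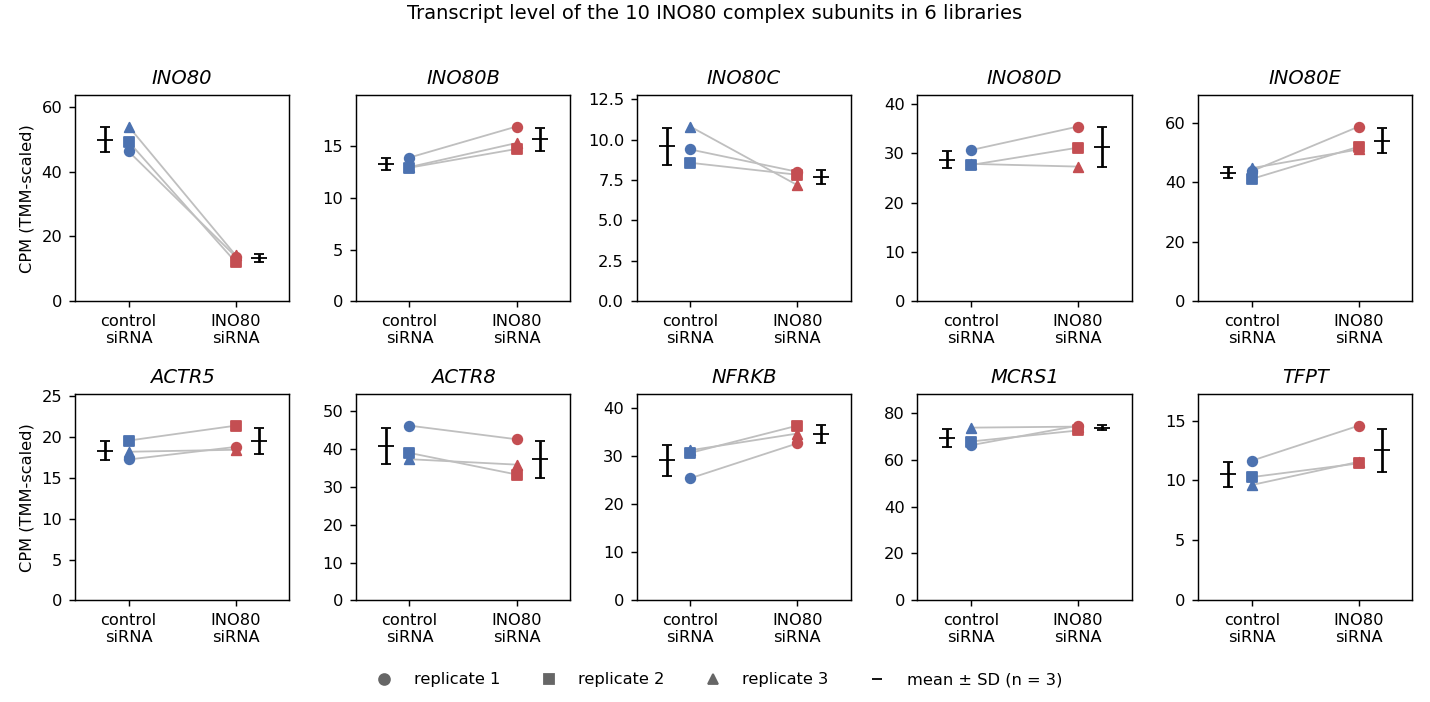
TMM-scaled CPM (vertical axes from 0) of the 10 subunit genes in each library, with marker shapes for replicates 1 to 3, grey lines between libraries of the same number, and bars for the mean ± SD (n = 3). INO80 fell from 49.9 to 13.3 CPM on average, and the groups also did not overlap for INO80B, INO80C, INO80E and NFRKB, whose means differed by at most 24.8%.

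The actin-related proteins ACTR5 and ACTR8 did not pass the test in either fit. ACTR5 (GRCh37 chromosome 20, 37377085 to 37400834, plus strand), which with INO80C forms the module that couples ATP use to nucleosome sliding, was at 17.3, 19.6 and 18.2 CPM under control siRNA and at 18.8, 21.4 and 18.5 CPM under INO80 siRNA. The groups overlapped, and the log2 fold change was 0.09 (SE 0.0984, 95% interval -0.13 to 0.32, adjusted p = 0.709, and 0.438 with the block). It was 0.02 without INO80 siRNA library 2, 0.05 without control library 1 and 0.14 without control library 2. ACTR8 (GRCh37 chromosome 3, 53901093 to 53916229, minus strand), which with actin binds the DNA leaving the nucleosome, was at 46.2, 39.0 and 37.3 CPM against 42.6, 33.3 and 35.9 CPM. Library 1 was the highest of ACTR8 in both groups, and each INO80 siRNA library lay below the control library of its number. The log2 fold change of ACTR8 was -0.13 (SE 0.115, 95% interval -0.40 to 0.13, adjusted p = 0.632), and with the block its adjusted p was 0.0954. It was -0.04 without control library 1, -0.06 without INO80 siRNA library 2 and -0.24 without INO80 siRNA library 1.

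INO80B and INO80C, the human counterparts of the yeast subunits Ies2 and Ies6 that bind close to the ATPase core, lay on opposite sides of their control levels, and both passed the test with the block only. INO80B (GRCh37 chromosome 2, 74682150 to 74688011, plus strand) was at 13.9, 12.9 and 12.98 CPM under control siRNA and at 16.9, 14.7 and 15.3 CPM under INO80 siRNA. The groups did not overlap, and the mean was 18.0% higher. On the log2 scale the change was 0.24 (SE 0.10, 95% interval 0.01 to 0.47, adjusted p = 0.284), and with the block it was called with an adjusted p of 0.0481, close to the threshold. With both libraries of 1 replicate number left out, which leaves 2 pairs, INO80B was called in none of the 3 fits with the block (adjusted p = 0.116 to 0.181).

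INO80C (GRCh37 chromosome 18, 33032194 to 33077955, minus strand) was at 9.39, 8.57 and 10.8 CPM under control siRNA and at 8.01, 7.83 and 7.18 CPM under INO80 siRNA. It was lower in every INO80 siRNA library than in every control library, with means of 7.67 ± 0.434 against 9.59 ± 1.14 CPM (SD, n = 3). Its log2 fold change was -0.32 (SE 0.132, 95% interval -0.62 to -0.02, adjusted p = 0.272), and with the block it was called with an adjusted p of 0.0457. The pair of libraries numbered 3 gave a log2 ratio of -0.56, against -0.22 and -0.12 for pairs 1 and 2. Without pair 3 the log2 fold change was -0.18 with the block, and INO80C was not called (adjusted p = 0.494). INO80C had the lowest FPKM of the members, with 154 to 209 counts per library. Its coefficient of variation over the control libraries was 11.8%, where counting error alone gives 7.47%. Over the INO80 siRNA libraries it was 5.65%, where counting error alone gives 7.57%.

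Of the subunits that animals add to the complex, INO80E and NFRKB were called higher under INO80 siRNA with the block. INO80E (GRCh37 chromosome 16, 30006615 to 30017114, plus strand), a small subunit of that module, was at 43.7, 41.1 and 44.7 CPM in the control libraries and at 58.7, 52.0 and 51.1 CPM in the INO80 siRNA libraries. The groups did not overlap, and the increase of 24.8% was the highest of the 10 members. INO80E had a log2 fold change of 0.32 (SE 0.0765, 95% interval 0.14 to 0.49). INO80E was not called by edgeR without the block (adjusted p = 0.0872), and was called with it (0.000116), with DESeq2 (0.0335) and with edgeR without a filter on low counts (0.0239). It was also called in the fits with the block that left out replicate 1, 2 or 3 in both groups.

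NFRKB (GRCh37 chromosome 11, 129733531 to 129765485, minus strand), which holds the deubiquitinase UCHL5 in the complex, was at 25.4, 30.6 and 31.2 CPM under control siRNA and at 32.6, 36.3 and 34.7 CPM under INO80 siRNA. Library 1 was the lowest in both groups, and the lowest INO80 siRNA library still lay above the highest control library. The mean was 18.8% higher, with a log2 fold change of 0.25 (SE 0.0958, 95% interval 0.03 to 0.47, adjusted p = 0.248). With the block, NFRKB was called with an adjusted p of 0.00467 (log2 fold change 0.25, SE 0.0632), and leaving out 1 pair at a time kept the call in 3 of 3 fits. Without the block, the log2 fold change was 0.16 when control library 1 was left out.

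INO80D, MCRS1 and TFPT were not called in either fit. INO80D (GRCh37 chromosome 2, 206858445 to 206951027, minus strand) was at 30.7, 27.7 and 27.9 CPM against 35.5, 31.2 and 27.3 CPM. It was higher in pairs 1 and 2 and not in pair 3, with a log2 fold change of 0.12 (SE 0.105, 95% interval -0.12 to 0.36, adjusted p = 0.623, and 0.205 with the block). The INO80D value was 0.03 without INO80 siRNA library 1 and 0.21 without INO80 siRNA library 3. MCRS1 (GRCh37 chromosome 12, 49950327 to 49961936, minus strand), which also belongs to the NSL acetyltransferase complex, was at 66.2, 67.7 and 73.7 CPM against 74.5, 72.5 and 74.1 CPM. Its INO80 siRNA libraries lay close together and overlapped with control library 3, and the log2 fold change was 0.09 (SE 0.0620, 95% interval -0.05 to 0.23, adjusted p = 0.523, and 0.180 with the block), and 0.06 without control library 1. TFPT (GRCh37 chromosome 19, 54610320 to 54619055, minus strand), named as a fusion partner of TCF3 in leukemia, was at 11.6, 10.3 and 9.62 CPM against 14.6, 11.4 and 11.6 CPM. TFPT was higher in 3 of 3 pairs, but the groups overlapped. Its log2 fold change was 0.25 (SE 0.137, 95% interval -0.06 to 0.56, adjusted p = 0.417, and 0.0668 with the block), and 0.13 without INO80 siRNA library 1.

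**Figure D2:**
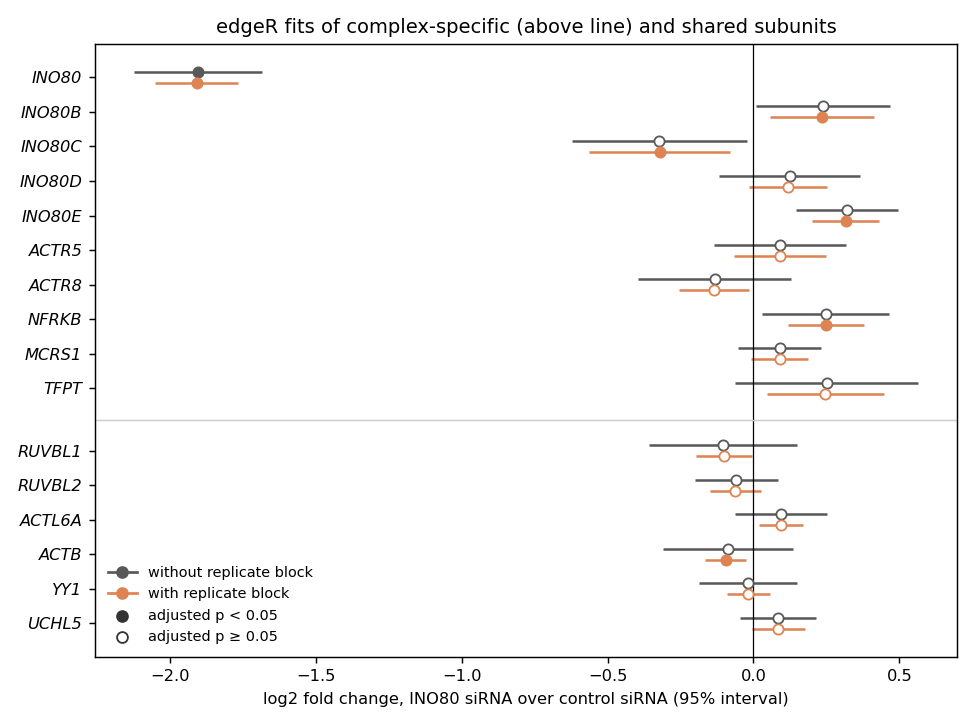
Log2 fold change (horizontal axis, INO80 siRNA over control siRNA, with its 95% interval) of the 10 complex-specific subunits above the line and 6 shared subunits below it, without (grey) and with (orange) the replicate block, where filled points have an adjusted p under 0.05. The block left the estimates nearly in place and narrowed the intervals. INO80 is filled in both fits, and INO80B, INO80C, INO80E, NFRKB and ACTB with the block only.

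Levels of different genes were compared per length, in the deposited FPKM. Under control siRNA, MCRS1 was the highest at 21.1 ± 1.49 FPKM (SD, n = 3), followed by ACTR8 (9.99 ± 0.966), TFPT (8.43 ± 0.675), ACTR5 (8.18 ± 0.645), INO80 (7.08 ± 0.660) and INO80E (7.08 ± 0.306). INO80B (5.35 ± 0.119), NFRKB (4.58 ± 0.588), INO80D (1.99 ± 0.0781) and INO80C (1.88 ± 0.235) were lower. The ranges over libraries overlapped between the neighbours TFPT and ACTR5, ACTR5 and INO80, INO80 and INO80E, and INO80D and INO80C. Within each control library, ACTR5 was above INO80 (7.52, 8.81 and 8.20 against 6.43, 7.07 and 7.75 FPKM). The order of the other neighbours named here changed between libraries and was not resolved. Under INO80 siRNA, INO80 stood 9th of the 10 genes at 1.91 ± 0.155 FPKM. Its range then overlapped with that of INO80D (2.18 ± 0.231 FPKM) and lay above that of INO80C (1.51 ± 0.0624 FPKM). These values are transcript levels, and subunit proteins were not measured.

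**Figure D3:**
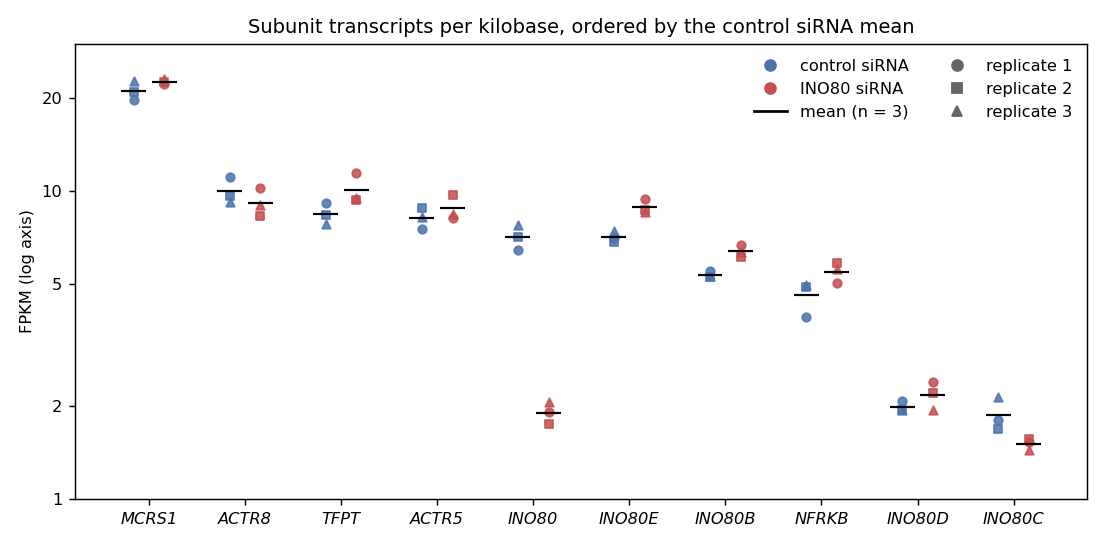
Deposited FPKM (log axis) of the 10 subunit genes in each library, ordered by the control siRNA mean, with marker shapes for replicates 1 to 3 and black lines for the mean (n = 3). INO80 moved from 7.08 to 1.91 FPKM, from the middle of the order to the level of INO80D and above INO80C, and MCRS1 was the highest in both groups.

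The ATPase transcript was also set against its partners within each library. INO80 made up 8.66%, 9.39% and 10.0% of the summed FPKM of the 10 members in control libraries 1, 2 and 3, and 2.42%, 2.30% and 2.71% in the INO80 siRNA libraries. The groups were far apart, with means of 9.35% ± 0.670 and 2.48% ± 0.213 (SD, n = 3). The difference was -6.87 percentage points by FPKM and -11.5 by raw counts, which weight long transcripts more. The log2 ratio of INO80 to the sum of the other 9 was -3.28 ± 0.115 against -5.30 ± 0.125 (SD, n = 3), a difference of -2.02. The summed FPKM of the other 9 was 67.8, 68.3 and 69.7 under control siRNA and 77.0, 74.4 and 73.9 under INO80 siRNA. These sums did not overlap, and the mean was 9.45% higher (68.6 ± 1.01 against 75.1 ± 1.69). With TMM-scaled CPM per kilobase in place of FPKM, it was 8.78% higher. The sum of all 10 members, INO80 included, was 75.7 ± 1.66 against 77.0 ± 1.68 FPKM, and the groups overlapped. No p is given for these sums, since they are scores over chosen members.

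Of the 6 subunits that the complex shares with other machinery, 0 were called by edgeR without the block. Of all tested genes, that fit called 1.49% lower and 0.261% higher. In the same fit, 0 of the 6 had an unadjusted p under 0.05, beside 2514 of 15343 tested genes, and DESeq2 called 0 of the 6. With 6 genes, these counts show little about the list. They are the ATPases RUVBL1 and RUVBL2, the actin-related protein ACTL6A, beta-actin (ACTB), the transcription factor YY1 and the deubiquitinase UCHL5. The log2 fold changes without the block were -0.10 for RUVBL1, -0.06 for RUVBL2, 0.09 for ACTL6A, -0.09 for ACTB, -0.02 for YY1 and 0.09 for UCHL5, with SE between 0.0573 and 0.110. Their median was -0.04. With the block, 3 of the 6 had an unadjusted p under 0.05, beside 5394 of 15343 tested genes. The block fit called 1 of the 6 lower, beside 13.4% of all tested genes. That gene was ACTB (log2 fold change -0.10, SE 0.0343, adjusted p = 0.0428, and 0.718 without the block). ACTB was at 6895, 6294 and 6449 CPM under control siRNA and at 7163, 5635 and 5689 CPM under INO80 siRNA. The groups of ACTB overlapped, and library 1 was the highest in both. In the gene ontology terms of the deposited table, the Ino80 complex was named for 14 genes, which were 9 of the 10 members (not INO80D) and 5 of the 6 shared subunits (not ACTB).

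The SRCAP and p400/TIP60 complexes contain related split ATPases, share RUVBL1 and RUVBL2 with INO80 and place H2A.Z into nucleosomes. Of 18 of their other subunits, 0 were called without the block or with DESeq2 and 3 had an unadjusted p under 0.05 (2514 of the 15343 tested genes did), with a median log2 fold change of 0.03. With the block, 2 were called higher and 2 lower, beside 11.4% and 13.4% of all tested genes, so these counts were close to those of the whole table. The bromodomain protein BRD8 was at 44.5, 42.3 and 45.4 CPM under control siRNA and at 50.3, 47.6 and 57.2 CPM under INO80 siRNA. Its log2 fold change was 0.23 with the block (SE 0.0543, adjusted p = 0.00243). The acetyltransferase complex subunit MEAF6 was at 42.0, 49.0 and 44.5 CPM against 31.1, 39.4 and 39.8 CPM. Its log2 fold change was -0.30 (SE 0.0594, adjusted p = 0.000522). The methyl-lysine reader MBTD1 was called higher (log2 fold change 0.21, adjusted p = 0.0220), and the chromodomain protein MORF4L1 lower (-0.11, adjusted p = 0.0300), both with the block. None of the 4 was called without it (adjusted p = 0.206 to 0.363). The CPM of the groups did not overlap for 2 of the 18 that were lower, MEAF6 and MORF4L1, beside 11.5% of all tested genes. The same held for 3 that were higher (BRD8, MBTD1 and a gene that neither fit called), beside 11.3%.

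H2A.Z itself is made from 2 genes, and neither was called in either fit. H2AFZ was at 546, 614 and 596 CPM under control siRNA and at 543, 635 and 631 CPM under INO80 siRNA, a log2 fold change of 0.04 (SE 0.0780, 95% interval -0.14 to 0.22). H2AFV was at 146, 154 and 151 CPM against 147, 156 and 163 CPM, a log2 fold change of 0.04 (SE 0.0595, 95% interval -0.09 to 0.18). The groups overlapped for both genes. ANP32E, the chaperone that removes H2A.Z from nucleosomes, was at 193, 210 and 213 CPM against 162, 184 and 197 CPM. ANP32E was lower in 3 of 3 pairs and its groups overlapped. Its log2 fold change was -0.19 (SE 0.0810, adjusted p = 0.302), and it was called with the block (adjusted p = 0.000469).

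**Figure D4:**
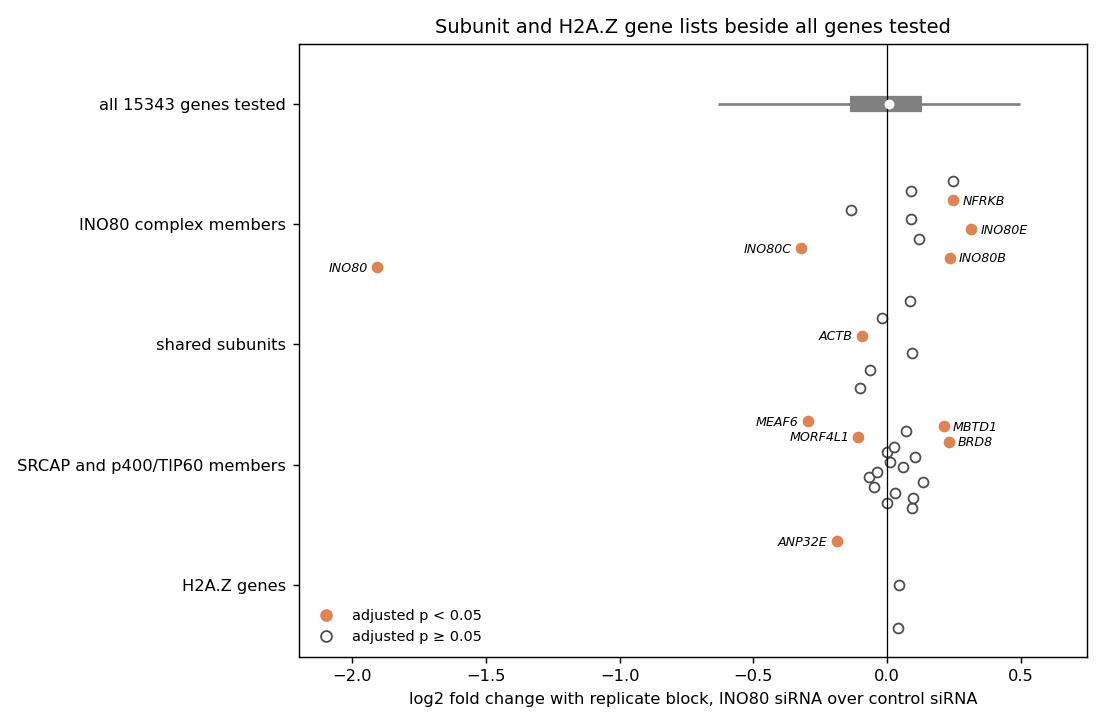
Log2 fold change with the replicate block (horizontal axis) of the genes in each list, with filled points for an adjusted p under 0.05. For all 15343 tested genes, the white point is the median of 0.0070, the thick bar spans the central 50% (-0.14 to 0.13) and the thin line the central 95% (-0.63 to 0.50). Of the genes plotted singly, INO80 alone lies outside the thin line.

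Some members share sequence with other genes of the table, and the strand setting of the counting is not given in the sources used here. INO80B overlaps WBP1 on the same strand over 2556 bases, and WBP1 had a log2 fold change of 0.06 (SE 0.171, adjusted p = 0.898). INO80E overlaps HIRIP3 on the other strand over 1143 bases, and HIRIP3 had a log2 fold change of 0.02 (SE 0.126, adjusted p = 0.957). TFPT overlaps the oppositely oriented NDUFA3 over 2245 bases (log2 fold change -0.07, adjusted p = 0.849) and PRPF31 over 219 bases (-0.01, adjusted p = 0.952). These overlaps are of whole gene spans, introns included, and shared exons were not examined. Counts of these members may thus hold reads of their neighbours or lack reads from the shared stretch. For NFRKB, no overlapping gene was found. INO80C overlaps a gene model on its own strand (ENSG00000267140) over 45711 bases, with 0 counts in all libraries. INO80D overlaps the antisense AC007383.3, which had at most 22 counts per library (log2 fold change -0.27, SE 0.293, adjusted p = 0.711). MCRS1 starts 65 bases from the oppositely oriented PRPF40B, a splicing factor. PRPF40B was at 4.88, 5.97 and 7.03 CPM against 7.41, 7.16 and 8.38 CPM. The log2 fold change of PRPF40B was 0.36 (SE 0.163, adjusted p = 0.328), and it was called higher with the block (adjusted p = 0.0422).

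The genes whose levels most resembled that of INO80 were found by Pearson's r of log2 CPM over the 6 libraries, among 13748 genes with a mean CPM of at least 1. All 6 libraries share their group differences and depths, so r here describes mainly the difference between groups and carries no p. The 5 highest were INTS3 (r = 0.998), TMX1 (0.997), ARPC5 (0.997), ARFGAP2 (0.996) and SCFD1 (0.994). INTS3, of the Integrator complex, was at 49.0, 50.8 and 50.9 CPM under control siRNA and at 34.7, 32.4 and 34.8 CPM under INO80 siRNA. ARFGAP2, which activates the GTPase of ARF1 at the Golgi, was at 37.3, 38.7 and 42.1 CPM against 23.3, 21.6 and 24.5 CPM. The log2 fold changes were -0.56 for INTS3, -0.26 for TMX1, -0.30 for ARPC5, -0.77 for ARFGAP2 and -0.52 for SCFD1. They are a description with no test, since r with INO80 chose the genes for much the same difference. Among the members, INO80C was the most like INO80 (r = 0.835, rank 1027) and INO80E the least (r = -0.892, rank 13304).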

How the data were processed

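RNA-seq was done on 3 control siRNA and 3 INO80 siRNA libraries of HK-2 cells, from poly(A) RNA with a directional kit and paired reads. The authors deposited 1 table with raw read counts per gene, not normalized, and FPKM. All 347430 deposited FPKM values equalled the count divided by exonic length and total count (tolerance 0.005). The submitters' processing notes name HISAT2 2.0.1, HTSeq and hg19, and the paper's methods name ELAND and hg38. The table's coordinates are those of hg19 (GRCh37) and are printed as deposited. The strand setting of the counting is not given in the sources used here.

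Groups were taken from the treatment labels. Counts were fitted in R 4.3.3 with edgeR 4.0.16 (filterByExpr, TMM, quasi-likelihood test, treatment alone), and p-values were adjusted by Benjamini-Hochberg over 15343 genes. A gene was called at an adjusted p under 0.05. The paper names no pairing, so the replicate block is the alternative fit. Same-numbered libraries deviated together from their group means (r across genes 0.427 to 0.639), above the 0.1 set for pairing. The highest r between different numbers, 0.165, also passed 0.1. Centring each group on its own mean lowers r between different numbers where same-numbered libraries deviate together. DESeq2 1.42.0, RLE size factors, other filters and leaving out libraries were further alternatives. Each fit was run on its own simulated data of 15343 genes, of which 200, drawn from genes with higher counts, were set to differ. The same spread beyond counting error was set for every gene. Deviations shared by same-numbered libraries were simulated for the fit with the block only. Each fit recovered 200 of the 200. Of the remaining genes, 7 were called without the block and 12 with it. Since the simulated data differed, these counts do not compare the fits. How the fit without the block behaves where same-numbered libraries deviate together was not tested. Recovery of differences as small as those of the members other than INO80 was not tested. Exact permutation tests were two-sided. CPM used TMM-scaled totals. Promoter windows came from RefSeq.

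Named genes were the members, the shared subunits, called genes of the other lists, the 5 genes most like INO80 and overlapping or divergent neighbours. The members and lists were chosen with earlier results of these data known. Depth limits the precision of low counts most, and counting error is given beside the lowest member.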

Additional observations from a re-analysis of the deposited data

How the results depend on the processing

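INO80 was called lower in all 11 alternative fits (adjusted p at most 0.00241). Leaving out 1 library at a time gave -1.95 to -1.83 on the log2 scale. Members called rose from 1 to 2 without a filter and with DESeq2 (INO80 and INO80E) and to 5 with the replicate block. With another filter or none, and with libraries left out, the genes tested were chosen anew. They need not be the same 15343, so whole-table counts of these fits have other bases. With the replicate block, 1 shared subunit, 4 SRCAP or p400/TIP60 subunits, the H2A.Z chaperone ANP32E and PRPF40B were called. The fit without the block called none of these, and neither fit called the H2A.Z genes H2AFZ and H2AFV. The block changed no other call among the named genes. Genes called over the whole table rose from 268 to 708 without a filter, 637 with DESeq2 and 3798 with the replicate block, and fell to between 18 (without control replicate 3) and 146 (without INO80 siRNA replicate 1) with 1 library left out, each of the 6 moving the count by over 1.5 times. With the replicate block and without both libraries of replicate 3, an alternative chosen after seeing the data, 3 members were called, and 4 without replicate 1 or 2, where 2251, 3978 and 2623 genes of the whole table were called without replicates 3, 1 and 2. The drop in the INO80 share was 11.5 percentage points by raw counts (-11.5) in place of -6.87 by FPKM. Of 338 values of 31 single genes under the alternatives, 293 kept their call and direction. Another 21 were no longer past the threshold, 13 gained a call and 11 changed sign. All 21 were of the 5 genes most like INO80, with 1 library left out, and for TMX1 also without a filter. Since r with INO80 chose these 5 genes, their calls are no test. The sign changes occurred near 0 when 1 library was left out: YY1 ranged from -0.068 to 0.037, WBP1 from -0.037 to 0.18, HIRIP3 from -0.040 to 0.12, PRPF31 from -0.039 to 0.022 and NDUFA3 from -0.19 to 0.044. The cause of these changes was not tested. All scalings left the median over all genes between 0.0037 and 0.014 on the log2 scale. Depth limits INO80C most, at 154 to 209 counts per library, then TFPT, INO80B and, under INO80 siRNA, INO80 itself (277 to 343 counts).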
